A study of Mus musculus with 16 samples.

Results

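The genes analyzed here were 10 genes of the blood vessels of the embryonic cortex, among 51912 listed genes. They were chosen by cell type and not by their values in these samples, though earlier results of these data were known. Of these, 8 mark endothelial cells (*Cldn5*, *Pecam1*, *Kdr*, *Flt1*, *Tek*, *Cdh5*, *Slc2a1* and *Mfsd2a*) and 2 mark pericytes (*Pdgfrb* and *Rgs5*). All 10 had counts in every mouse. The E15.5 cortex of 15 mice was measured by RNA-seq with unique molecular identifiers (UMIs), as whole dissected tissue. The 4 cKO mice, 5, 7, S2 and F3, carried floxed *Knl1* (labelled *Casc5*) and *hGFAP-Cre*, a transgene that recombines in cortical neural progenitor cells (NPCs). The 4 dKO mice, T2, T8, F1 and F7, were double conditional knockouts, with floxed *Knl1* and floxed *Trp53* both deleted by the same Cre. Of the 7 ctrl mice, 2, 6, S1, S3 and T3 were wild type for *Casc5* and T4 and T5 were heterozygous. Endothelial cells do not descend from cortical NPCs, so neither deletion was aimed at them. The strain background is not given in the labels.

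*Knl1* encodes a kinetochore protein needed for chromosome segregation, and *Trp53* encodes p53. The cortex is vascularized from outside. Vessels enter from the plexus around the neural tube, sprout towards VEGF made by neural cells, and recruit pericytes through PDGF-B and its receptor. Endothelial cells of the brain then build the blood-brain barrier with tight junctions, a glucose transporter and a low rate of transcytosis. In cKO cortex NPCs are lost by apoptosis, which raised the question of whether the share of vessel RNA rises as neural cells are lost. In whole tissue, fewer cells of a type and less RNA per cell cannot be told apart.

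Levels are given as CPM, in which each mouse's counts are scaled to the same total and adjusted by TMM over the 15 mice. Depth differed between groups. Total counts ran from 399832 to 3266227 for ctrl mice, from 4178461 to 8800987 for cKO mice and from 552186 to 5396803 for dKO mice, so that every cKO mouse was deeper than every ctrl mouse. The 10 genes together had 53 to 542 counts in a ctrl mouse, 735 to 1356 in a cKO mouse and 92 to 851 in a dKO mouse. In the shallowest mouse, ctrl T3, 3 counts were 7.50 CPM, and in the deepest, cKO S2, they were 0.341 CPM. Mouse S2 had 2 libraries, S2 and S2b, which were summed; the 10 genes had 675 and 681 counts in them. Their counts differed by a chi-square of 1.14 for each degree of freedom over 13658 genes, near what sampling gives, and the 3 pairs of different cKO mice by 3.56 to 23.1. Counts over the whole of *Knl1* gave 62.8 ± 13.5 CPM for ctrl (SD, n = 7), 58.2 ± 14.8 for cKO (n = 4) and 49.8 ± 11.7 for dKO (n = 4). For *Trp53* they were 30.5 ± 10.6, 28.3 ± 4.26 and 25.1 ± 5.26 CPM. Neither deletion could be seen from whole-gene counts of the tissue, with log2 fold changes of *Knl1* of −0.13 in cKO and −0.37 in dKO versus ctrl (FDR of 1 for both, edgeR).

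The start regions of *Rgs5* and *Flt1* are shown. *Rgs5* was the gene with the smallest unadjusted p in cKO versus ctrl, and *Flt1* the one with the ETS motif AGGAAG. ETS factors are regulators of endothelial genes. RefSeq promoters, 250 bases before to 50 bases after a start site, were at hand for 7 of the 10 genes (GRCm38.p6). The motifs searched on both strands were the ETS motif AGGAAG, the GC box GGGCGG, the CCAAT box CCAAT and the TATA box TATAAA. Capitals mark them on either strand, and shorter forms of the ETS motif were not searched. The *Rgs5* region is chr1:169655251-169655550 (plus strand) and the *Flt1* region chr5:147725962-147726261 (minus strand), both written 5′ to 3′ along the gene.
Rgs5: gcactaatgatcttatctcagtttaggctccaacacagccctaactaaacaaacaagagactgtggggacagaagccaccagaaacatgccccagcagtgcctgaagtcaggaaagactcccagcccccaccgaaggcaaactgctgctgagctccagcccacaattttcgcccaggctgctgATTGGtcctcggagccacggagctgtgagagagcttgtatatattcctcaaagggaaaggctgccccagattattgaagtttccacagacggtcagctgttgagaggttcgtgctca
Flt1: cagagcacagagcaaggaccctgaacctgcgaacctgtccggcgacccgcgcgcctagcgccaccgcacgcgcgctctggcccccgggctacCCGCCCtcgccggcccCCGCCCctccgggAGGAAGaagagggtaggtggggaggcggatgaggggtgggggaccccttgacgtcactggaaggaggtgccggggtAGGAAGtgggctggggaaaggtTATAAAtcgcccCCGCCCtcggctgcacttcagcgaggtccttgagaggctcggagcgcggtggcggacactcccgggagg
The ETS motif AGGAAG was in 1 of the 7 regions, *Flt1*, and in 35.4% of all 32851 promoters. The GC box was in 4 of 7 (*Slc2a1*, *Kdr*, *Flt1* and *Cldn5*) and in 35.7% of all, and the CCAAT box in 4 of 7 (*Rgs5*, *Slc2a1*, *Mfsd2a* and *Cldn5*) and in 37.4% of all. The TATA box was in 2 of 7 (*Slc2a1* and *Flt1*) and in 13.6% of all. GC content of the 7 ran from 52.0% to 70.7%, beside a median of 52.7% over all promoters. These are matches of letters, and nothing was measured of the factors.

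Per length of exon, *Slc2a1* was the most abundant of the 10 genes. It had 10.8 ± 2.67 CPM per kb of exon (SD, n = 15 mice), with single mice between 5.71 and 16.3. *Rgs5* followed at 4.596 ± 1.32, *Cldn5* at 4.03 ± 2.42 and *Mfsd2a* at 3.62 ± 1.135. The other 6 lay close together, from *Kdr* at 2.66 ± 0.908 down to *Flt1* at 1.90 ± 0.606. The step from *Slc2a1* to *Rgs5* was larger than the SD of either gene, and no later step was. Whether introns were counted is not given in the sources used here. Per kb of the whole gene, *Cldn5*, a gene as long as its exon, came first at 4.03 and *Slc2a1* second at 1.29.

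The summed level of the 10 genes did not separate the groups. In ctrl it ran from 118 CPM (T5) over a median of 164 to 203 (T3). In cKO it was 154 CPM in S2, 172 in F3, 179 in 5 and 184 in 7. In dKO it was 153 CPM in T2, 165 in F7, 168 in F1 and 259 in T8. All cKO mice and 3 of the 4 dKO mice lay inside the ctrl range, and dKO mouse T8 stood above every other mouse. The means were 161 ± 27.0 CPM in ctrl (SD, n = 7), 172 ± 12.9 in cKO (n = 4) and 186 ± 48.9 in dKO (n = 4). The log2 ratio of the means was 0.10 for cKO over ctrl, where the SD within groups was 0.21. For dKO over ctrl it was 0.21, where the SD was 0.28, and for cKO over dKO −0.11, where it was 0.26. Without T8, dKO over ctrl was 0.01.

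Within the litters that held ctrl and cKO mice, every cKO mouse was above its ctrl littermates with TMM scaling, by less than the SD between ctrl mice. In litter 1 the mean sum was 173 CPM in 2 ctrl mice and 181 in 2 cKO mice. In litter 2 it was 147 CPM in 2 ctrl mice and 154 in 1 cKO mouse. Ctrl mouse S1 of litter 2 was in batch 2, and cKO mouse S2 in batch 1. Without TMM scaling the order was lost in litter 1. There cKO mouse 5 had 165.8 CPM and cKO mouse 7 had 175.9, beside 181.1 in ctrl mouse 2 and 165.9 in ctrl mouse 6. Litter 2 kept the order, with 145.2 CPM in S3, 150.3 in S1 and 154.1 in S2. The other sums given here are with TMM scaling. The 3 ctrl mice of litter 3 had a mean of 162 CPM and its 2 dKO mice, T2 and T8, 206. Litter 4 had no ctrl mouse, with 172 CPM in cKO F3 and a mean of 167 in 2 dKO mice. The labels number 3 batches, and the dKO mice were all in batch 3. Within batch 1, 3 ctrl mice had a mean of 163 CPM and 3 cKO mice 172. Within batch 3, 3 ctrl mice had 162 CPM, the 4 dKO mice 186 and the 1 cKO mouse 172, while batch 2 held 1 ctrl mouse.

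Single genes were tested with edgeR's likelihood ratio test over all 51912 genes, each comparison on its own groups. None of the 10 passed an FDR of 0.05 in any comparison. The background, the share of all genes that passed, was 0.16% in cKO versus ctrl, 0.0501% in dKO versus ctrl and 0.052% in cKO versus dKO. At an unadjusted p under 0.05 the counts were 1 of 10 in cKO versus ctrl, 0 in dKO versus ctrl and 0 in cKO versus dKO. Among 5649 genes of the same range of levels the shares were 7.82%, 6.27% and 3.52%. DESeq2 gave 0 at an unadjusted p under 0.05 in each comparison, and edgeR's quasi-likelihood test gave 1, 0 and 0. In none of the 10 genes did the groups stay apart without overlap, in any comparison. Non-overlap was found for 0.708%, 0.496% and 2.46% of the genes at these levels.

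**Figure D1:**
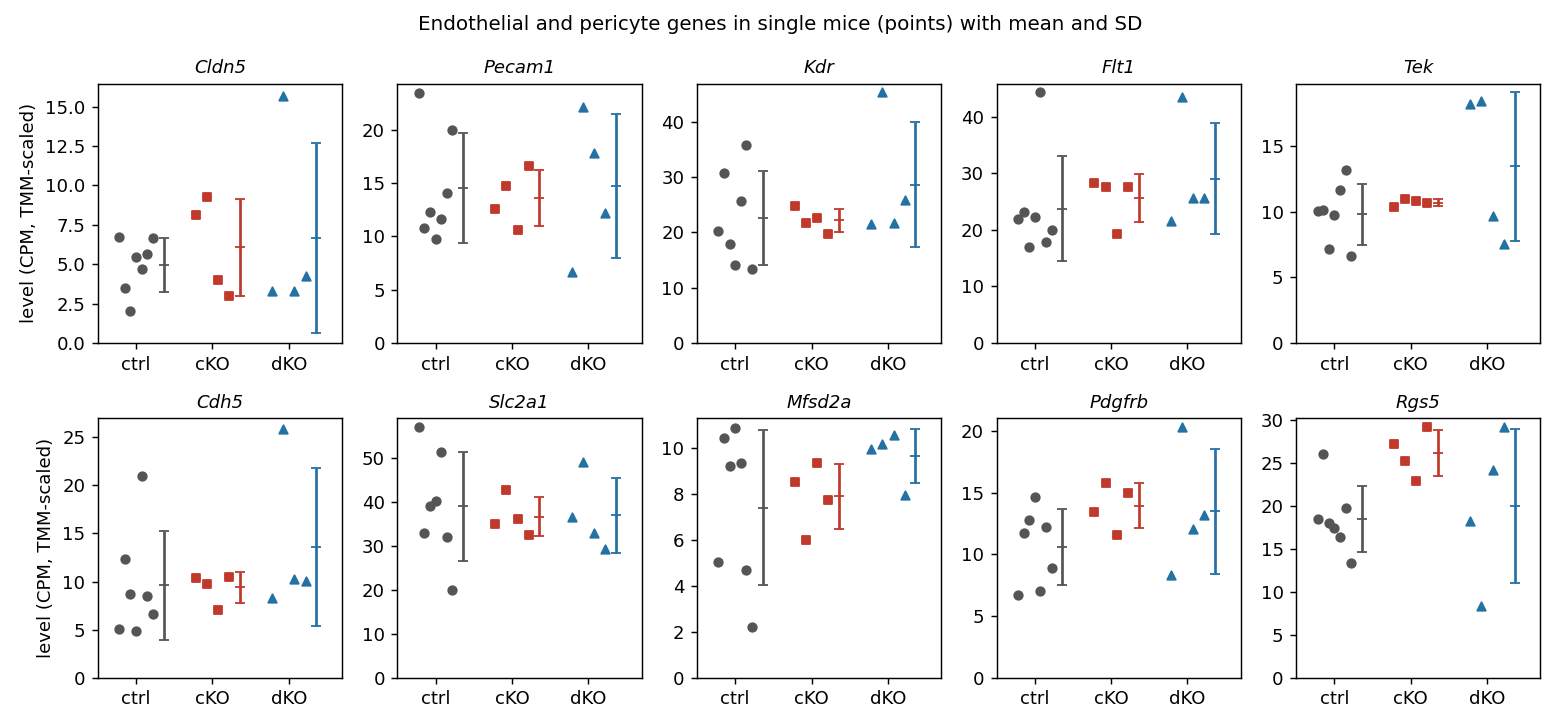
Level of each gene (CPM, TMM-scaled) in single mice of ctrl (circles, 7), cKO (squares, 4) and dKO (triangles, 4), with the mean and SD beside the points. The groups overlap in all 10 panels, and the highest dKO point of *Cldn5*, *Kdr* and *Cdh5* is mouse T8, at 15.7, 45.3 and 25.9 CPM.

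The receptors for vessel growth factors come first. *Kdr* (ENSMUSG00000062960, chr5:75932827-75978458, minus strand) encodes VEGFR2, the main receptor for VEGF-A. In ctrl its lowest, median and highest levels were 13.3, 20.2 and 35.8 CPM. In cKO it was 24.8 CPM in 5, 21.8 in 7, 22.5 in S2 and 19.8 in F3, and in dKO 21.6 in T2, 45.3 in T8, 21.7 in F1 and 25.8 in F7. The cKO mice sat close together in the middle of the ctrl range, and T8 alone exceeded it. The log2 fold change was −0.07 in cKO versus ctrl (standard error, SE, 0.21; 95% interval −0.49 to 0.36) and 0.30 in dKO versus ctrl (SE 0.27; −0.22 to 0.82).

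*Flt1* (ENSMUSG00000029648, chr5:147561604-147726011, minus strand) encodes VEGFR1, a receptor that binds VEGF-A tightly and limits its action. Levels in ctrl ran from 16.9 over 21.8 to 44.4 CPM. The cKO levels were 28.2 CPM in 5, 27.5 in both 7 and F3, and 19.3 in S2, and in dKO 21.6 in T2, 43.4 in T8, 25.7 in F1 and 25.6 in F7. Both T3 and T8 were well above the rest of their groups, and the groups overlapped. The log2 fold change was 0.18 in cKO versus ctrl (SE 0.20; −0.20 to 0.57) and 0.37 in dKO versus ctrl (SE 0.23; −0.08 to 0.81).

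*Tek* (ENSMUSG00000006386, chr4:94739289-94874976, plus strand) encodes Tie2, the receptor of the angiopoietins, which steady vessels together with pericytes. Its ctrl levels ran from 6.67 over 10.1 to 13.2 CPM. In cKO they were within a narrow band, 10.4 CPM in 5, 11 in 7, 10.8 in S2 and 10.7 in F3. In dKO they were 18.2 CPM in T2, 18.5 in T8, 9.66 in F1 and 7.57 in F7. The dKO mice thus split by litter, T2 and T8 of litter 3 being above every ctrl mouse and F1 and F7 of litter 4 inside the ctrl range. Depth made the same split, with 552186 and 1023405 total counts in T2 and T8, and 3519529 and 5396803 in F1 and F7. Its log2 fold change was 0.13 in cKO versus ctrl (SE 0.22) and 0.27 in dKO versus ctrl (SE 0.32), with an FDR of 1 for both.

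The junction genes were low and wide in their spread. *Cdh5* (ENSMUSG00000031871, chr8:104101625-104144511, plus strand) encodes VE-cadherin, the cadherin of endothelial adherens junctions. The ctrl mice spanned 4.89 to 21.01 CPM with a median of 8.47. In cKO it was 10.4 CPM in 5, 9.75 in 7, 7.05 in S2 and 10.5 in F3, and in dKO 8.29 in T2, 25.9 in T8, 10.3 in F1 and 10.1 in F7. Its dKO versus ctrl log2 fold change, 0.52 (SE 0.35; 95% interval −0.17 to 1.22; FDR of 1), was the largest of the 10 in that comparison, with only T8 above the ctrl range. In cKO versus ctrl it was 0.00 (SE 0.27; −0.53 to 0.53). An annotated antisense gene, Gm29682, overlaps *Cdh5*, and whether counting used strand is not given in the sources used here.

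*Cldn5* (ENSMUSG00000041378, chr16:18776847-18778262, plus strand) encodes claudin 5, the chief tight-junction protein of brain endothelium. It had the lowest mean CPM of the 10, not scaled by length, with 2 to 40 counts in a mouse. The ctrl mice spanned 2.05 to 6.72 CPM with a median of 5.43. The cKO levels were 8.13 CPM in 5, 9.25 in 7, 3.98 in S2 and 2.96 in F3, and in dKO 3.32 in both T2 and F1, 15.7 in T8 and 4.27 in F7. Mice 5 and 7, of litter 1, and T8 were above the ctrl range, and the other mutants inside it. The log2 fold changes of 0.41 in cKO (SE 0.39; −0.36 to 1.17) and 0.45 in dKO (SE 0.48; −0.49 to 1.39) versus ctrl therefore had wide intervals. Without T8 the dKO value was −0.21.

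*Pecam1* (ENSMUSG00000020717, chr11:106654217-106750628, minus strand) encodes CD31, an adhesion molecule between endothelial cells that leukocytes and platelets carry too. Its ctrl levels ran from 9.77 over 12.3 to 23.5 CPM. Among cKO mice it was 12.6 CPM in 5, 14.8 in 7, 10.6 in S2 and 16.6 in F3, and in dKO 6.63 in T2, 22.2 in T8, 17.8 in F1 and 12.2 in F7. One dKO mouse, T2, was below every ctrl mouse, with 4 counts. Its log2 fold change was 0.02 in cKO versus ctrl (SE 0.23) and 0.19 in dKO versus ctrl (SE 0.28).

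Of the transporters, *Slc2a1* (ENSMUSG00000028645, chr4:119108711-119137983, plus strand) encodes GLUT1, which carries glucose across the barrier and is also made by other cells of the tissue. In ctrl it ran from 20.01 over 38.9 to 57.1 CPM. The cKO levels were 34.9 CPM in 5, 42.8 in 7, 36.2 in S2 and 32.5 in F3, and in dKO 36.5 in T2, 49.0 in T8, 32.9 in F1 and 29.3 in F7. Every mutant lay inside the ctrl range. The intervals were the narrowest of the 10 in cKO versus ctrl, where the log2 fold change was −0.07 (SE 0.17; −0.40 to 0.25), a fold between 0.758 and 1.19. In dKO versus ctrl it was −0.10 (SE 0.20; −0.49 to 0.30). Annotated antisense genes overlap *Slc2a1* as well.

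*Mfsd2a* (ENSMUSG00000028655, chr4:122946850-122961188, minus strand) encodes the lipid transporter that keeps transcytosis low in barrier endothelium. Levels in ctrl ran from 2.22 over 9.22 to 10.9 CPM. In cKO it was 8.53 CPM in 5, 6.00 in 7, 9.33 in S2 and 7.73 in F3, and in dKO 9.95 in T2, 10.2 in T8, 10.6 in F1 and 7.96 in F7. The low ctrl values came from shallow mice, with a single count in T5, and all mutants were inside the ctrl range. Its log2 fold change was −0.09 in cKO versus ctrl (SE 0.26) and 0.17 in dKO versus ctrl (SE 0.31).

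The pericyte genes stood higher in cKO than in ctrl by their means, without passing the test. *Pdgfrb* (ENSMUSG00000024620) encodes the receptor through which PDGF-B recruits pericytes, and meningeal fibroblasts carry it as well. Its ctrl levels ran from 6.72 over 11.7 to 14.7 CPM. Among cKO mice it was 13.4 CPM in 5, 15.8 in 7, 11.6 in S2 and 15.0 in F3, and in dKO 8.29 in T2, 20.3 in T8, 12.1 in F1 and 13.2 in F7. Mice 7, F3 and T8 were above the ctrl range. The log2 fold change was 0.22 in cKO versus ctrl (SE 0.22; −0.21 to 0.65) and 0.22 in dKO versus ctrl (SE 0.27; −0.30 to 0.75).

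*Rgs5* (ENSMUSG00000026678, chr1:169655501-169695813, plus strand) encodes a regulator of G-protein signalling typical of pericytes, and its start region is printed above. In ctrl it ran from 13.3 over 17.9 to 26.0 CPM, the highest being mouse 6. In cKO it was 27.2 CPM in 5, 25.3 in 7, 22.9 in S2 and 29.1 in F3. In dKO it was 18.2 CPM in T2, 8.32 in T8, 24.2 in F1 and 29.1 in F7. The cKO mice exceeded 6 of the 7 ctrl mice, and S2 and 7 were below mouse 6. The dKO mice again split by litter, and so by depth, with F1 and F7 near the cKO levels. T8, at 9 counts, was the lowest of all mice. Group means were 18.4 ± 3.88 CPM in ctrl (SD, n = 7), 26.1 ± 2.67 in cKO (n = 4) and 19.95 ± 8.94 in dKO (n = 4). The log2 fold change in cKO versus ctrl was 0.39 (SE 0.19; 95% interval 0.02 to 0.75), the single one of the 10 with an unadjusted p under 0.05 (unadjusted p = 0.035, FDR 0.879, edgeR). In cKO versus dKO it was 0.27 (SE 0.24; −0.20 to 0.74). Within batch 1 the cKO versus ctrl value was 0.21 (unadjusted p = 0.346, edgeR), and with litter as a covariate 0.22 (unadjusted p = 0.251, edgeR).

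**Figure D2:**
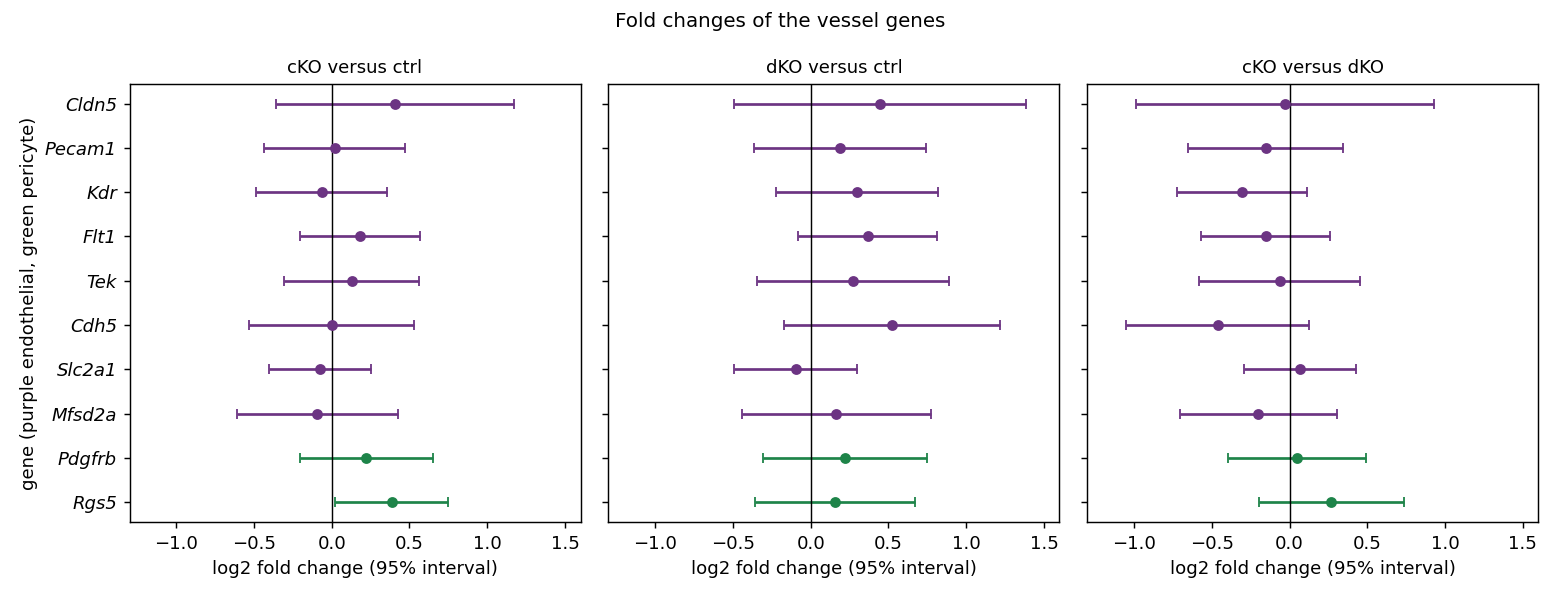
Log2 fold change of each gene with its 95% interval (horizontal axis) in the 3 comparisons, for 8 endothelial genes (purple) and 2 pericyte genes (green). All intervals include 0 except that of *Rgs5* in cKO versus ctrl, 0.02 to 0.75, which has an FDR of 0.879.

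Over the 10 genes, the median log2 fold change was 0.07 in cKO versus ctrl, beside 0.02 over the 5649 genes of like level, whose quartiles were −0.14 and 0.17. It was 0.25 in dKO versus ctrl, beside 0.03 with quartiles of −0.14 and 0.21. In cKO versus dKO it was −0.11, beside 0.01 with quartiles of −0.13 and 0.15. By sign, 6 of 10 were higher in cKO than in ctrl, 9 of 10 in dKO than in ctrl and 3 of 10 in cKO than in dKO, and of the genes at these levels 52.6%, 55.1% and 51.5%. The first and second comparison share the ctrl mice. Without T8, the median in dKO versus ctrl was 0.04. Leaving out the mice of litter 4 instead, F1, F3 and F7, moved it to 0.51, and 4 of the 10 genes then had an unadjusted p under 0.05, beside 5.42% of the genes at these levels in the same fit, and none an FDR under 0.05 (edgeR). Of the dKO mice this left only T2 and T8. The same choice gave 4 of 10 in cKO versus dKO, beside 9.56%, and 0 of 10 in cKO versus ctrl, beside 5.72%. Leaving out litter 4 was chosen after seeing the data.

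The endothelial and the pericyte genes were also summed apart. The 8 endothelial genes summed to 132 ± 27.3 CPM in ctrl (SD, n = 7), 132 ± 10.2 in cKO (n = 4) and 153 ± 51.7 in dKO (n = 4). The 2 pericyte genes summed to 29.0 ± 5.61 CPM in ctrl, 40.1 ± 4.03 in cKO and 33.4 ± 7.24 in dKO. Their cKO levels, 40.6 CPM in 5, 41.0 in 7, 34.5 in S2 and 44.1 in F3, were above those of all ctrl mice except mouse 6, at 37.7 CPM, which S2 did not reach. The ratio of the endothelial to the pericyte sum was 4.71 ± 1.55 in ctrl, 3.31 ± 0.275 in cKO and 4.83 ± 2.26 in dKO. Across the 15 mice, *Pdgfrb* and *Rgs5* had a Pearson's r of 0.01, and the 28 pairs of endothelial genes a median r of 0.36, the highest being 0.81 for *Flt1* and *Cdh5*. These points share depth, batch and litter, and r is a description.

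Depth moved with the pericyte levels. The 7 mice with more than 3000000 counts were 1 ctrl, 4 cKO and 2 dKO mice, and their pericyte sums ran from 34.5 to 44.1 CPM. The 8 shallower mice, 6 ctrl and 2 dKO with at most 1934831 counts, ran from 22.2 to 32.0 CPM. *Rgs5* was between 22.9 and 29.1 CPM in the deep mice and between 8.32 and 19.8 in the shallow ones. The ratio of endothelial to pericyte sum was 2.90 to 3.64 in the deep mice and 3.66 to 8.03 in the shallow ones. The endothelial sums overlapped, at 120 to 143 CPM and 95.6 to 230 CPM. With all mice thinned at random to the counts of the shallowest, the log2 fold change of *Rgs5* in cKO versus ctrl was 0.57 (SE 0.32; unadjusted p = 0.0685, edgeR). In the same single draw *Pecam1* was −1.09 (SE 0.56; unadjusted p = 0.0346, FDR of 1, edgeR), against 0.02 with all counts. In these mice high depth and cKO cannot be told apart, except through ctrl mouse 6 and dKO mice F1 and F7, which had *Rgs5* at 26.0, 24.2 and 29.1 CPM.

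**Figure D3:**
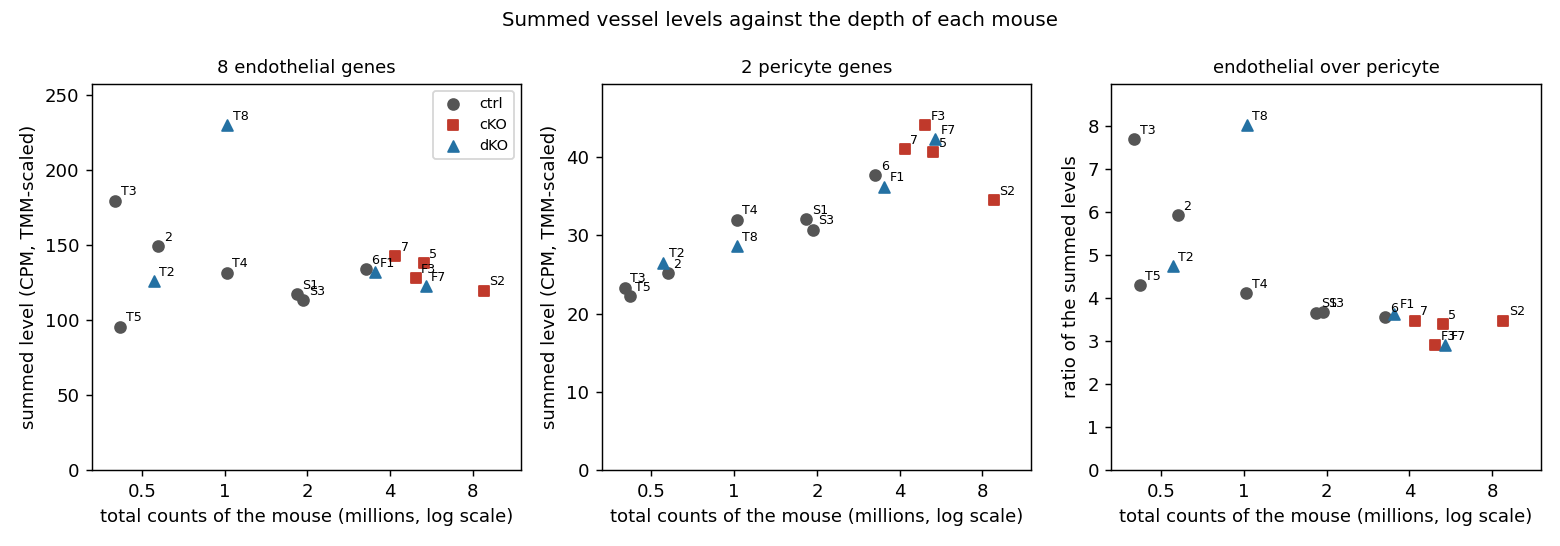
Summed level (CPM, TMM-scaled) of the 8 endothelial genes, of the 2 pericyte genes, and the ratio of both sums, against the total count of each mouse (log scale), for ctrl (circles), cKO (squares) and dKO (triangles). The 7 deepest mice (1 ctrl, 4 cKO and 2 dKO) have pericyte sums of 34.5 to 44.1 CPM. The 8 others (6 ctrl and 2 dKO) have 22.2 to 32.0, so that depth and cKO cannot be told apart.

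Genes whose levels followed the vessel genes most closely were found over the same 15 mice, among 9170 genes with a mean of at least 10 CPM. For the endothelial genes (mean of their log2 CPM) these were *Ercc2* (Pearson's r of 0.86), *Stn1* (0.82), *Ets1* (0.81), *Col4a2* (0.80) and *Col4a1* (0.78). *Col4a1* and *Col4a2* encode the collagen IV chains of the vessel basement membrane, and *Ets1* an ETS factor present in endothelium. *Jak1*, *Sfxn1*, *Heatr5a*, *Ahnak* and *Osbpl3* followed, with r of 0.75 to 0.77. For the pericyte genes the closest were *Pcnx2* (0.97), *Tulp4* (0.95), *Macf1* (0.94), *Rapgef2* (0.92) and *Mast2* (0.92), none of them a pericyte marker of the lists used here. All 5 had higher means in the 7 deep mice than in the 8 others, for *Pcnx2* 93.7 and 64.2 CPM. The endothelial followers, except *Jak1* at 65.3 and 59.0 CPM, had lower means in the deep mice, from 31.2 and 31.7 CPM for *Ercc2* to 64.5 and 85.2 CPM for *Col4a1*. The points share depth, and the r values are descriptions.

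Other vessel genes were taken from 4 lists, none of whose genes passed an FDR of 0.05 in any comparison (edgeR). For list counts at an unadjusted p under 0.05, here and below, the background is the 5649 genes at the levels of the 10. Its shares were 7.82% in cKO versus ctrl and 6.27% in dKO versus ctrl, and the lists also hold genes outside those levels. Of 22 other endothelial genes, 19 had a mean of at least 1 CPM, with a median log2 fold change of 0.09 in cKO and 0.03 in dKO versus ctrl. At an unadjusted p under 0.05, 0 were higher and 2 lower in cKO versus ctrl, and 0 in dKO versus ctrl. *Sox17*, a factor of arterial endothelium, had the smallest p, at 0.653 ± 0.0801 CPM in cKO (n = 4) and 1.33 ± 1.06 in ctrl (n = 7), with at most 7 counts in a mouse. The list summed to 133 ± 33.5 CPM in ctrl, 143 ± 7.67 in cKO and 152 ± 40.8 in dKO, and T8 was its highest mouse at 213 CPM. Of 18 blood-brain barrier genes the median was 0.01 in cKO and 0.17 in dKO versus ctrl, and at an unadjusted p under 0.05, 2 were lower in cKO and 1 was higher in dKO. *Lef1*, a transcription factor of Wnt signalling that NPCs express too, was 32.7 ± 10.3 CPM in cKO and 49.1 ± 17.3 in ctrl, a log2 fold change of −0.61 (SE 0.23; FDR 0.566). *Tfrc*, the transferrin receptor, was 57.7 ± 14.8 CPM in dKO and 38.7 ± 11.4 in ctrl, a log2 fold change of 0.53 (SE 0.19; FDR 0.907).

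Mural genes other than the pericyte pair were rarer. Of 14 on the list, 7 had a mean of at least 1 CPM, with a median log2 fold change of −0.34 in cKO and −0.39 in dKO versus ctrl. At an unadjusted p under 0.05, 2 were higher in cKO, and 2 higher and 1 lower in dKO, versus ctrl. The list summed to 63.0 ± 20.2 CPM in ctrl, 58.8 ± 3.90 in cKO and 56.7 ± 9.89 in dKO. Its members went both ways. *Cspg4*, which encodes the pericyte proteoglycan NG2 and is also found in glial precursors, was 7.80 ± 1.07 CPM in cKO and 4.49 ± 2.69 in ctrl, a log2 fold change of 0.72 (SE 0.30; FDR 0.683, edgeR). *Abcc9*, a channel subunit of pericytes, had 0.37 (SE 0.24; FDR of 1). *Notch3*, a receptor of mural cells that NPCs express too, had −0.43 (SE 0.23; FDR of 1). *Tagln*, of smooth muscle, had no count in any ctrl mouse and at most 4 counts in another mouse, so no fold is given.

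Of 22 genes for ligands and receptors that act on vessels, 2 were higher and 4 lower in cKO versus ctrl at an unadjusted p under 0.05. In dKO versus ctrl 1 was higher and 2 were lower. The shares of the 5649 genes were 7.82% and 6.27%, but this list spans a wider range of levels. *Nrp1*, a VEGF and semaphorin co-receptor found on neurons too, was 222 ± 26.7 CPM in cKO and 299 ± 80.3 in ctrl, a log2 fold change of −0.45 (SE 0.16; FDR 0.512). *Vegfc*, a ligand of VEGFR3, was 15.5 ± 1.58 CPM in dKO and 24.6 ± 3.95 in ctrl, a log2 fold change of −0.66 (SE 0.22; FDR 0.781). *Vegfa*, the main attractant of sprouting vessels, was 40.2 CPM in cKO, 48.6 in dKO and 44.0 in ctrl, with log2 fold changes of −0.05 and 0.24 and an FDR of 1 for both. The list summed to 1008 ± 127 CPM in ctrl, 950 ± 35.2 in cKO and 939 ± 28.5 in dKO.

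Genes of neural cells were compared in the same way. Of 7 intermediate progenitor genes, 2 fell in cKO versus ctrl, *Eomes* with a log2 fold change of −1.13 (SE 0.18; FDR 5.06e-06, edgeR) and *Neurog2* with −1.19 (SE 0.25; FDR 0.00564). Both encode transcription factors of basal progenitors. The list median was −1.13, while the 8 endothelial genes had a median of 0.01. Of 10 interneuron genes, made by cells that migrate in from outside this Cre lineage, 2 rose, *Gad1* by 0.56 (SE 0.14; FDR 0.0408) and *Erbb4* by 0.56 (SE 0.14; FDR 0.0361). A further 6 were higher at an unadjusted p under 0.05, beside 7.82% of the 5649 genes at the levels of the vessel genes. The interneuron median was 0.50. No gene of these 2 lists passed in dKO versus ctrl, where the medians were −0.51 and 0.11, beside 0.29 for the endothelial genes. At an unadjusted p under 0.05, 3 intermediate progenitor genes were lower and 1 interneuron gene higher in that comparison. Of 10 radial glia genes 0 passed, and 4 were lower in cKO and 0 in dKO at an unadjusted p under 0.05, with medians over the 9 measured of −0.31 and −0.17. Of 9 excitatory neuron genes 0 passed and 0 had an unadjusted p under 0.05, with medians over the 8 measured of 0.17 and 0.04. The study reported *Eomes*, *Neurog2*, *Gad1* and *Erbb4* as changed in cKO from these same mice. Their calls and list medians are therefore no independent yardstick for the vessel genes. Whether the vessel genes differ from the interneuron genes in their response was not tested.

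**Figure D4:**
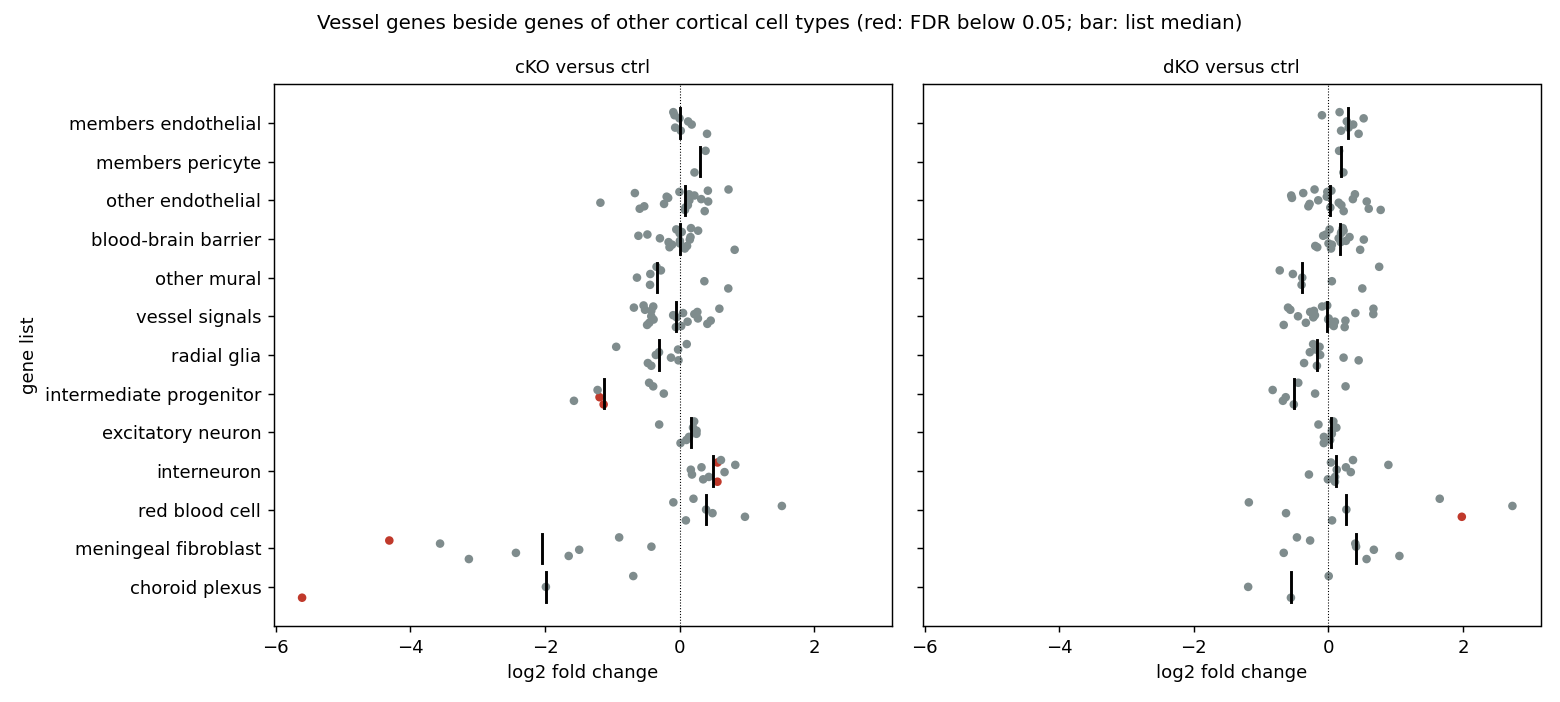
Log2 fold change (horizontal axis) of each gene with a mean of at least 1 CPM, by list, in cKO versus ctrl and dKO versus ctrl; red points passed an FDR of 0.05 and bars are list medians. Vessel lists have no red point, while intermediate progenitor genes have a median of −1.13 and interneuron genes of 0.50 in cKO versus ctrl. The lists were chosen with earlier results of these data known.

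Tissue that borders the cortex moved with some of the vessel levels. The 10 meningeal fibroblast genes summed to 8.20 to 128 CPM in ctrl, 9.10 to 18.3 in cKO and 8.29 to 115 in dKO. The 2 highest mice, ctrl T3 at 128 CPM and dKO T8 at 115, were also the highest of all mice in the endothelial sum, at 180 and 230 CPM. The next, ctrl T4 at 62.1 CPM, had an endothelial sum of 132. Of this list *Aldh1a2* fell in cKO versus ctrl (log2 fold change −4.31, SE 1.61, FDR 0.0408, edgeR), with at most 7 counts in a mouse. Over the 8 with a mean of at least 1 CPM, the median log2 fold change was −2.04 in cKO and 0.40 in dKO versus ctrl. At an unadjusted p under 0.05, 5 of the 10 were lower and 0 higher in cKO versus ctrl, beside 7.82% of the genes at the vessel levels. In dKO versus ctrl it was 0, beside 6.27%. In cKO versus dKO 6 were lower and 0 higher, beside 3.52% (edgeR). The 6 choroid plexus genes summed to 3.36 to 66.7 CPM in ctrl, 3.41 to 4.50 in cKO and 3.30 to 34.8 in dKO, and *Ttr* fell in cKO versus ctrl and versus dKO (FDR 0.00652 and 0.000404). The study reported *Aldh1a2* and *Ttr* as lower in cKO than in ctrl from the same mice. Leaving out T3 and T8 together, a choice made after seeing the data, gave log2 ratios of the 10-gene sum of 0.17 for cKO over ctrl and 0.08 for dKO over ctrl. No gene of the 10 passed an FDR of 0.05 without them. The part of meningeal tissue in the vessel levels was not tested.

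Genes of red blood cells were read as well. The 10 red blood cell genes summed to 11.3 to 28.6 CPM in ctrl, 18.9 to 34.7 in cKO and 24.9 to 34.2 in dKO. *Hba-a2*, an alpha globin gene with a near-identical copy, rose in dKO versus ctrl from 2.38 ± 1.63 to 8.15 ± 1.48 CPM (FDR 0.0203, edgeR), with at most 31 counts in a mouse. The study listed *Hba-a2* as changed in dKO from the same mice. The alpha globin gene *Hba-a1* did not follow, at 8.19 ± 3.07 CPM in ctrl and 8.96 ± 1.92 in dKO, a log2 fold change of 0.05. *Hbb-bt* had 2.73 (SE 1.02; FDR 0.517), with at most 12 counts in a mouse. *Alas2* had 1.65 (SE 0.58; FDR 0.772), with at most 32 counts. Of the 7 genes with a mean of at least 1 CPM, 5 were higher in dKO than in ctrl, and *Hba-x* and *Hbb-y* were lower. At an unadjusted p under 0.05, 3 of the 10 were higher and 0 lower in dKO versus ctrl, beside 6.27% of the genes at the vessel levels. In cKO versus ctrl it was also 3 higher and 0 lower, beside 7.82% (edgeR).

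Male and female mice were compared for the same genes, with 4 males and 3 females in ctrl and 2 of each sex in cKO and in dKO. The interaction of genotype and sex passed an FDR of 0.05 for none of the 10 genes, beside 0.0173% of all genes in cKO versus ctrl and 0% in dKO versus ctrl (edgeR). At an unadjusted p under 0.05 it was found for *Slc2a1* in cKO versus ctrl, with a log2 fold change lower by 0.77 in males than in females (difference −0.77, unadjusted p = 0.0134, FDR of 1, edgeR), and for none in dKO versus ctrl. The shares of genes at these levels with an unadjusted p under 0.05 were 8.3% and 1.98%.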

How the data were processed

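Total RNA of E15.5 cortices was sequenced by Click-seq with UMIs. Per the labels, the authors used cutadapt 1.13, STAR 2.5.2a, UMI-tools 0.5.3 and HTSeq 0.6.1p1 with mm10, and deposited whole-number counts of deduplicated reads per gene, without normalization. The 5 summary lines of each file were left out, and made up 21.6% to 38.7% of all its counts. Symbols came from GENCODE vM21 (GRCm38), which matched 51719 of 51912 genes. Replicates were single mice, and counts of S2 and S2b were added.

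Each comparison was fitted with edgeR 4.0.16 in R 4.3.3 (TMM, estimateDisp, glmFit, glmLRT, no covariates, no filter), with Benjamini-Hochberg adjustment over all genes. SEs came from the information matrix of the fit. Alternatives used the quasi-likelihood test, DESeq2 1.42.0, other size factors, filterByExpr, covariates, subsets of mice and thinned counts. The fit was tested on simulated data. Floors of 3 counts cover counting error only.

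The genes and lists were chosen with earlier results of these data known. The genes named from a list were those that passed an FDR of 0.05, or the one with the smallest p. Others (*Vegfa*, *Cspg4*, *Notch3*, *Abcc9*, *Hbb-bt*) and the split of mice at 3000000 counts were chosen after their values were seen. The result of 1 further list of genes is not reported here.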

Additional observations from a re-analysis of the deposited data

Results flagged for a closer look

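In 7 of 42 sets of values (a gene, sum or ratio in the mice of 1 group), 1 mouse lay farther from the others than Dixon's 95% limit. Chance gives about 1 in 20 for a single set. The sums and the ratio are made of the same genes, so the sets are not independent. Their count cannot be weighed against that rate. Of these, 4 were dKO mouse T8: *Cldn5* at 15.7 CPM (others 3.32 to 4.27), *Cdh5* at 25.9 CPM (others 8.29 to 10.3), the sum of the 8 endothelial genes at 230 CPM (others 123 to 132) and the sum of the 10 genes at 259 CPM (others 153 to 168). The same mouse had 115 CPM of meningeal fibroblast genes and the lowest *Rgs5*, and their part in the sums was not tested. *Flt1* was apart in ctrl mouse T3, at 44.4 CPM (others 16.9 to 23.1), the mouse with the fewest counts and the most meningeal RNA. *Flt1* was also apart in cKO mouse S2, at 19.3 CPM (others 27.5 to 28.2). The ratio of endothelial to pericyte sum was apart in cKO mouse F3, at 2.91 (others 3.40 to 3.48), the single cKO mouse of batch 3, and close to 2.90 in its dKO littermate F7.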

How the results depend on the processing

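In each of 78 alternatives over the 3 comparisons, 0 of the vessel genes had an FDR under 0.05. A few of them repeat a fit, so its values recur in the counts below. In cKO versus ctrl, leaving out T3 and T8 equals leaving out T3, and leaving out litter 4 equals leaving out F3. In cKO versus dKO, leaving out T3 and T8 equals leaving out T8. In dKO versus ctrl filterByExpr kept 8 of the 10. The smallest FDR of a vessel gene was 0.402 in cKO versus ctrl, 0.882 in dKO versus ctrl and 0.384 in cKO versus dKO. Of 778 values of single genes, 721 moved by less than 1 SE, 57 by more, and 82 had the other sign, none of them of a call. The log2 ratio of the 10-gene sum moved by less than the SD within groups under each alternative tried. It was −0.03 without TMM scaling in cKO versus ctrl, and in cKO versus dKO 0.09 without T8, against −0.11 with it. Median log2 fold changes of the 10 genes ran from −0.02 to 0.16, 0.04 to 0.54 and −0.43 to 0.10. Counts of all genes called depended more on the setting, with 13 to 373 in cKO versus ctrl (83 as reported), 0 to 113 in dKO versus ctrl (26) and 1 to 184 in cKO versus dKO (27). Leaving out T3 and T8 together, or the mice of litter 4, was chosen after seeing the data. Few counts in shallow mice limit the precision, with SEs of 0.17 to 0.49 for the vessel genes. The groups share no replicate numbers, and with litter as a covariate 0 of the 10 genes were called in each comparison. That covariate left dKO versus ctrl to litter 3 and cKO versus dKO to litter 4, the only litters holding both groups. P-values set the difference between groups against the spread between these mice. The fits as reported take littermates as independent.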
